A study of Mus musculus with 21 samples.

Results

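B cells labelled BCL2 HEL pos were compared between the Peyer's patches (PP), the clusters of lymphoid follicles of the small bowel, and the spleen. The comparison takes in 6 of the 21 libraries of the series, 3 from each tissue, chosen by their labelled tissue and cell kind, and covers all genes of the count table. All 6 are bulk RNA sequencing libraries of B cells sorted into TRIzol from C57BL/6 mice with an age label of 8 to 12 weeks. The 3 libraries of each tissue carry the numbers 922, 926 and 950, and wherever 3 values are given for a tissue they stand in that order. The series, whose title names self-reactive B cells of the PP, also holds 3 HEL pos libraries per tissue, 1 pooled HEL neg library per tissue and the same kinds of cells from mesenteric lymph nodes (mLN). Of the 3 HEL pos libraries of each tissue, 1 is titled Pool. Every cell in this comparison, in the spleen as in the PP, carries the HEL pos and BCL2 labels. The labels expand neither term, name no promoter, allele or gate, and do not say whether a library came from 1 mouse, only that mice of a group were caged together. The p-values therefore reflect only how far these libraries vary, and that variation may be technical.

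Peyer's patches lie under a specialised epithelium that passes gut contents to the lymphocytes below, and they are a site where B cells meet microbial and dietary antigen and can switch to IgA. The spleen filters blood, and its B cells are mostly resting follicular and marginal zone cells. When the antigen receptor of a B cell is engaged, transcription factors of the NR4A and EGR families are induced within a short time, followed by Myc, costimulatory ligands and genes of growth. In cells that meet self-antigen continuously, NR4A and EGR factors are also part of the programme that restrains the response, called anergy.

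Levels below are in CPM, counts scaled to the library total after TMM scaling, and differences are PP minus spleen on the log2 scale with the standard error of the fit. Library totals of the 6 ran from 7052369 to 11340876 counts, with 12939 to 15180 genes detected, and 3 counts corresponded to 0.258 to 0.434 CPM. Spearman correlations across genes between libraries of a tissue were 0.979 to 0.988, and no pair was the same within sampling noise. The B cell label held in all 6: Cd79a, a chain of the antigen receptor complex, was at 6687 to 7311 CPM in spleen and 5398 to 6357 CPM in PP, and the sum of 14 pan-B cell markers was 21775 to 23184 CPM in spleen and 16634 to 19143 CPM in PP. Transcripts of Xist (178 to 276 CPM) and of 4 Y-linked genes (121 to 165 CPM in sum) were both present in each of the 6 libraries.

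RNA of the gut epithelium was present in the PP libraries. The 27 epithelial markers in the table summed to 13.0, 10.5 and 8.63 CPM in spleen and to 22.97, 159 and 229 CPM in PP, so PP library 922 held far less of it than PP 926 and PP 950. Of 22 epithelial markers that passed the low-count filter, 12 were higher in PP and 0 lower (0 also by DESeq2 and at an unadjusted p under 0.05), or 1 higher with PP 922 as the only PP library. They passed the filter through PP libraries, so this count describes them and is no test of the list. Rbp2 (intestinal retinol binding protein) was at 1.51, 11.7 and 26.0 CPM in PP and Apoa1 (a lipoprotein of enterocytes) at 0.252, 9.95 and 11.0 CPM. These genes had 0 counts in every spleen library, and against a floor of 3 counts over the 3 spleen libraries (0.13 CPM) Rbp2 was at least 114-fold and Apoa1 at least 58.1-fold higher. Apoa4 (at least 33.0-fold) and the keratin Krt8 (at least 44.4-fold) were also at 0 counts in spleen. The fatty acid binding proteins Fabp1 (1.77, 10.1 and 28.6 CPM) and Fabp2 (3.66, 39.0 and 54.0 CPM) had 1 spleen library each above 0. In bulk samples like these, fewer cells of a type and less RNA per cell cannot be told apart.

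The summed markers of other cell types differed less, but the sum of the T and NK cell list hid opposite differences. Its 23 markers summed to 293 to 327 CPM in spleen and 294 to 407 CPM in PP, and much of the PP sum was Lck, a Src family kinase that B cells can also express. Lck was at 43.4, 34.5 and 43.3 CPM in spleen and 151, 176 and 231 CPM in PP (2.21 ± 0.21, adjusted p = 7.18e-07). Without Lck, a gene singled out after its values were seen, the markers summed to 260.2, 258 and 283 CPM in spleen and to 159, 118 and 175 CPM in PP, so each PP library was below each spleen library. Of the 20 T and NK cell markers tested, 2 were higher and 1 lower, 17 had a negative difference, and the median was -1.40. Which cells the rest of this sum came from was not tested, nor was the part of T and NK cell RNA in the genes lower in PP. The 22 macrophage and dendritic cell markers summed to 375 to 567 and 363 to 454 CPM, and the 21 stromal and endothelial markers to 482 to 532 and 366 to 499 CPM. Defining markers were far lower in the 6 libraries: Csf1r was at 0 to 5.65, C1qa at 1.05 to 4.22 and Lyz2 at 1.33 to 19.2 CPM. The stromal genes Col1a1 and Cxcl13 were at most at 0.232 CPM. Pecam1 alone was at 209 to 240 CPM in spleen and 134 to 208 CPM in PP. Which cells these sums came from was not tested. The 17 granulocyte markers summed to 13.5 to 16.5 CPM in spleen and 11.2 to 15.9 CPM in PP, and the 15 erythroid and platelet markers to 25.5 to 89.7 and 25.0 to 28.8 CPM. Defining markers of T cells were near the floor: Cd3e was at 2.12 to 3.95 CPM in spleen and 0.258 to 2.40 CPM in PP. Cd3d, Cd4 and Cd8a were each at most at 3.04 CPM in spleen and 1.46 CPM in PP, a small part of the sum without Lck. The granulocyte genes S100a8 and S100a9 had 0 counts in all PP libraries. Beta-s, an adult beta globin gene, was at 49.8, 10.3 and 2.26 CPM in spleen and 1.89, 8.61 and 6.97 CPM in PP, with spleen 922 apart from the rest. The 1 lower gene of the T and NK cell list was Cd2 (-0.89 ± 0.15, adjusted p = 0.000681). Klrb1c, an NK cell receptor gene, was at 1.01, 0 and 0 CPM in spleen and 2.65, 4.84 and 3.61 CPM in PP (adjusted p = 0.0161). Slc4a1, the anion exchanger of red cells, was at 5.21, 1.16 and 0.664 and 0.126, 0 and 0 CPM (adjusted p = 0.0157). Klrb1c was not called without PP 926, spleen 926 or spleen 950, and Slc4a1 not without PP 926, PP 950 or spleen 922. Of the macrophage (16 tested), granulocyte (6) and stromal (4) markers, 0 were called by edgeR, with 4, 0 and 2 at an unadjusted p under 0.05 and 2, 0 and 1 called by DESeq2.

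**Figure D1:**
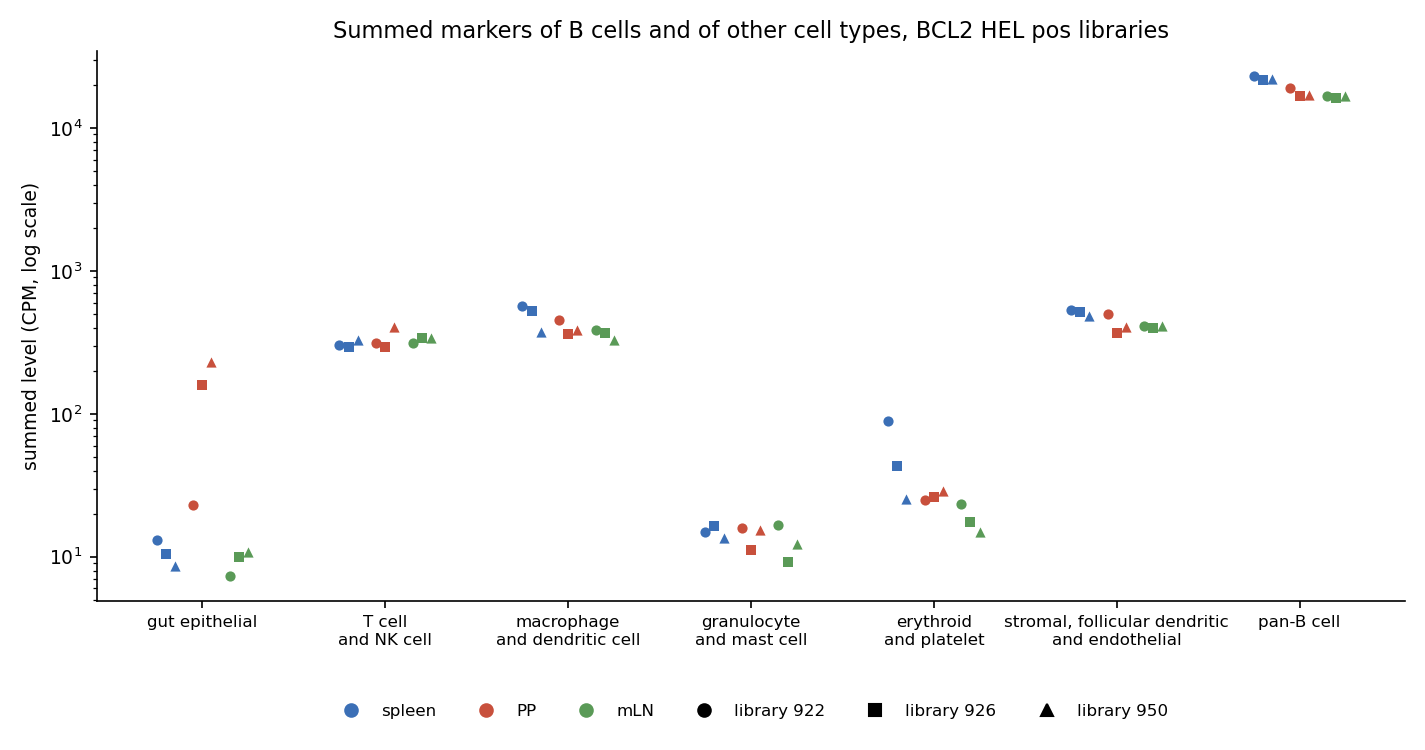
Summed level (CPM, log scale) of the markers of B cells and of 6 other cell types in the 9 BCL2 HEL pos libraries, 1 point per library. Epithelial markers reach 159 and 229 CPM in PP libraries 926 and 950 against 22.97 CPM in PP 922, and the other sums differ less between tissues.

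Of 11419 genes tested, 838 (7.34%) differed between PP and spleen at an adjusted p under 0.05 (edgeR quasi-likelihood test, Benjamini-Hochberg): 549 were higher in PP (4.81%) and 289 lower (2.53%). A difference of more than 2-fold was reached by 298 of them, 221 higher and 77 lower. The groups of 3 did not overlap in CPM for 2988 genes (26.2%). The median difference of all genes tested was -0.02. The number called fell to 518, 476 and 545 without spleen library 922, 926 or 950 and to 521 and 473 without PP library 926 or 950, while 866 genes were called without PP 922. With PP 922 as the only PP library, 100 genes were called, 83 higher and 17 lower, 97 of them also called with all 3. A lone library is assumed in that fit to vary as the other groups do. Of 146 called genes followed gene by gene, 79 were called in each fit that left out 1 of the 6 libraries, and 35 with PP 922 as the only PP library, where 0 of the 146 changed sign. That fit has fewer PP libraries, so a lost call by itself does not show a smaller difference. Some differences were smaller there: 0.27 for Hspa5, 0.20 for Cd86 and -0.30 for Jun, beside the values with all 3 PP libraries given below. How many were smaller was not counted. Gene groups are counted below over the members that passed the low-count filter. Each count in BCL2 HEL pos cells is to be read against the shares of all genes, 4.81% higher and 2.53% lower. With the replicate number as a block, 1388 genes were called, 568 of them lower, and counts of lower members rose from 5 to 10 for the antigen receptor components, from 4 to 9 for the pan-B cell markers, from 3 to 6 for the immediate early genes and from 14 to 21 for the interferon-stimulated genes. Beyond the genes with the largest differences and the 4 with the smallest p of each group, members are named that were chosen after their values were seen, as were Ahr, Mthfd2 and Txnrd1.

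**Figure D2:**
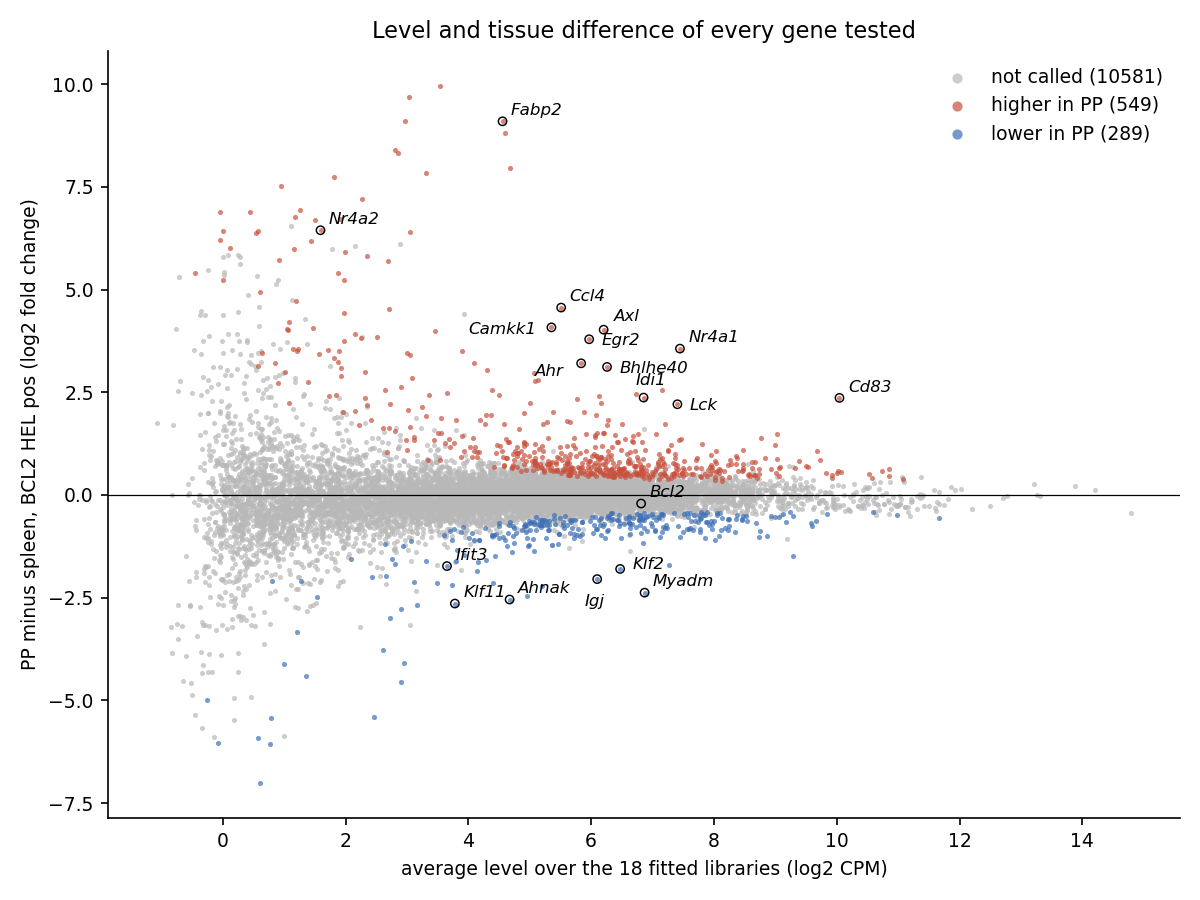
Average level over the 18 libraries of the fit (log2 CPM) against the PP minus spleen difference of BCL2 HEL pos cells (log2) for all 11419 genes, with 549 higher genes in red, 289 lower genes in blue and named genes circled. Of the circled genes the epithelial Fabp2 lies highest, Ccl4, Camkk1, Axl and Egr2 lie near or above 4 log2 units at higher levels, and Bcl2 lies near 0.

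Antigen receptor induced transcription factors were among the genes that differed most. Of 26 immediate early and receptor-induced genes tested, 9 were higher in PP and 3 lower, and the list's median was -0.01 beside -0.02 for all genes. The higher genes were the NR4A nuclear receptors Nr4a1, Nr4a2 and Nr4a3, the zinc finger factors Egr1 and Egr2, Cd83, Myc, and the NF-kappaB genes Rel and Nfkbid. Nr4a1 stood at 22.7, 15.7 and 36.4 CPM in spleen and 282, 186 and 411 CPM in PP. In GENCODE gene models of GRCm38, Nr4a1 spans chr15:101254269-101274795 and Cd83 chr13:43784775-43803132, both on the plus strand. Each PP library was several times above the highest spleen library for Nr4a1, and the difference was 3.56 ± 0.31 (adjusted p = 2.87e-07). Egr2, which restrains lymphocyte activation, rose from 2.75, 6.16 and 3.19 CPM to 40.8, 45.6 and 83.8 CPM (3.79 ± 0.33, adjusted p = 2.98e-07), and Egr1 from 14.9, 15.3 and 19.6 CPM to 109, 67.0 and 97.0 CPM (2.45 ± 0.25, adjusted p = 1.79e-06). Nab2, a corepressor that binds EGR factors and is induced by them, followed the same order (14.2, 10.9 and 23.1 CPM and 31.8, 75.4 and 58.2 CPM, 1.78 ± 0.37, adjusted p = 0.00432). Nr4a2 and Nr4a3 were low in every library: Nr4a2 was at 0, 0.116 and 0 CPM in spleen and 2.27, 2.82 and 10.1 CPM in PP, and Nr4a3 at 0, 0 and 0.929 and 3.16, 5.25 and 2.84 CPM.

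Cd83, a surface protein of activated B cells that stabilises MHC class II, was the most abundant of the receptor-induced genes that differed. It stood at 262, 303 and 403 CPM in spleen and 1365, 1596 and 2018 CPM in PP (2.36 ± 0.16, adjusted p = 1.98e-08). Its lowest PP library was above 3 times its highest spleen library. Rel (0.72 ± 0.14, adjusted p = 0.00182) and Nfkbid, which encodes a nuclear IkappaB protein (0.84 ± 0.23, adjusted p = 0.0249), rose by less than 1 log2 unit. The 3 lower genes of the list were Dusp1, Jun and Klf6. Dusp1, a phosphatase of MAP kinases, was at 53.8, 29.6 and 40.0 CPM in spleen and 14.1, 6.32 and 13.2 CPM in PP (-1.86 ± 0.43, adjusted p = 0.00994). Jun, an AP-1 subunit, was at 154, 219.9 and 200.4 CPM in spleen and 156, 86.2 and 89.5 CPM in PP, so PP library 922 overlapped the spleen libraries (-0.80 ± 0.21, adjusted p = 0.0201), and Klf6 differed by -0.60 ± 0.14 (adjusted p = 0.0099). Neither direction was thus shared by the whole list: 14 of its 26 members were not called. The 3 lower became 1 without spleen 950, PP 926 or PP 950 and 5 without PP 922, and of the higher genes Nfkbid was lost without spleen 922, spleen 926, PP 926 or PP 950 and Nr4a3 without spleen 926. With PP 922 as the only PP library, 5 members were called higher and 0 lower.

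**Figure D3:**
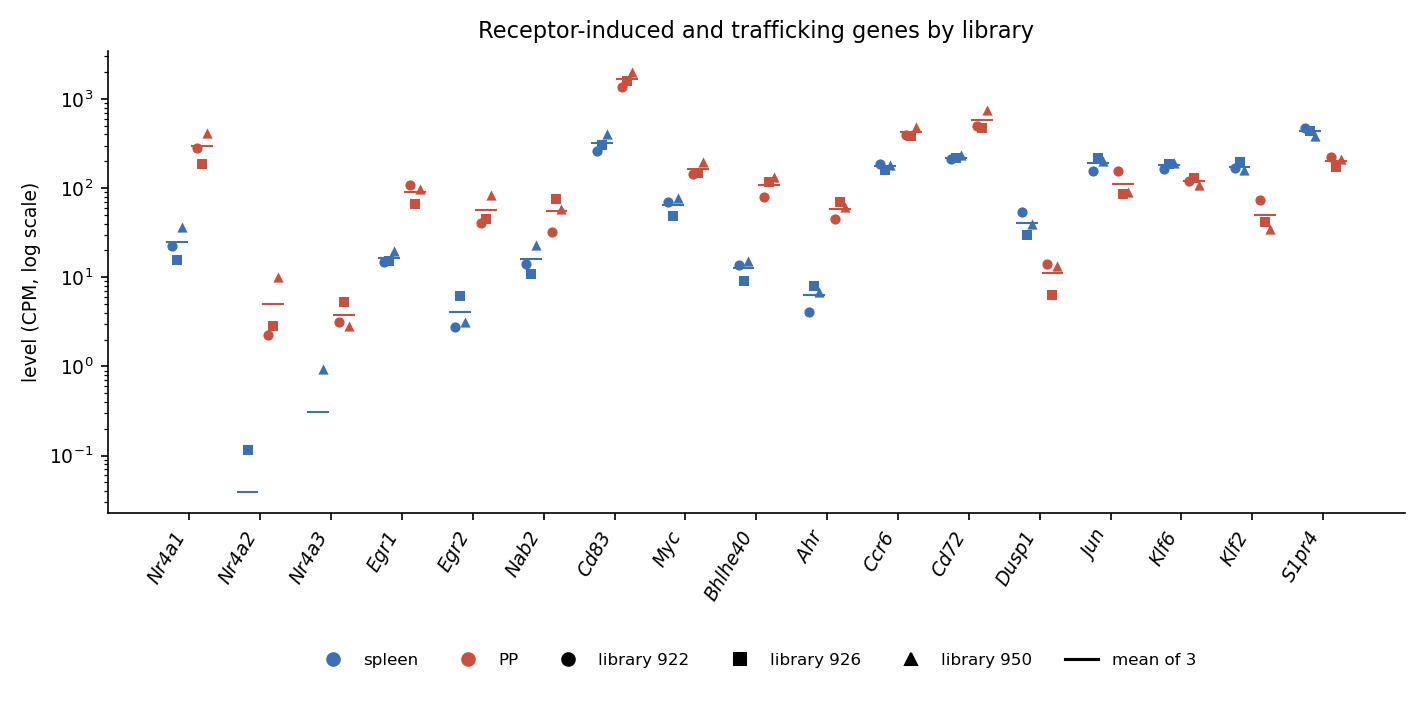
Level (CPM, log scale) of 17 receptor-induced and trafficking genes in the 3 spleen libraries (blue) and the 3 PP libraries (red) of BCL2 HEL pos cells, 1 point per library and a line at each mean. Libraries at 0 CPM (for Nr4a2 and Nr4a3 in spleen) are not drawn on the log axis. The 12 genes from Nr4a1 to Cd72 lie higher in every PP library, while Klf2 and S1pr4 lie lower and Jun overlaps.

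Of 26 anergy and tolerance genes tested, 7 were higher in PP and 2 lower, with a median of 0.15. Egr2, Nr4a1, Nr4a3 and Nab2, given above, made up 4 of the 7. The other 3 act at the membrane to limit receptor signals. Cd72, an inhibitory C-type lectin, was at 211, 217 and 233 CPM in spleen and 498, 479 and 745 CPM in PP (1.38 ± 0.15, adjusted p = 7.6e-06). Inpp5d, which encodes the lipid phosphatase SHIP1, was at 331, 322 and 357 and 549, 521 and 522 CPM (0.66 ± 0.12, adjusted p = 0.00107), and Ptpn6, which encodes the tyrosine phosphatase SHP-1, differed by 0.40 ± 0.11 (adjusted p = 0.0336). The diacylglycerol kinase Dgka (-0.76 ± 0.15, adjusted p = 0.00373) and Ndrg1 (9.26, 9.41 and 8.10 CPM in spleen and 0.631, 3.90 and 4.04 CPM in PP, -1.61 ± 0.41, adjusted p = 0.0186), both linked to unresponsiveness in T cells, were lower. Ndrg1, at under 5 CPM in each PP library, did not pass the test without spleen library 922 or 926, nor did Ptpn6 when any library but PP 926 was left out.

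Components of the antigen receptor pathway itself moved in both directions. Of 27 tested, 3 were higher and 5 lower, with a median of -0.15. The lower genes included Syk, the kinase that binds the phosphorylated receptor (612, 592 and 757 CPM in spleen, 402, 324 and 334 CPM in PP, -0.89 ± 0.16, adjusted p = 0.00159), the receptor chain Cd79b (-0.56 ± 0.15, adjusted p = 0.0237), the kinase Lyn (-0.48 ± 0.14, adjusted p = 0.0397) and the phosphoinositide kinase subunit Pik3r1 (-0.59 ± 0.16, adjusted p = 0.0278). Higher were Fyn, another Src family kinase (0.93 ± 0.23, adjusted p = 0.0167), the adaptor Pik3ap1 (0.69 ± 0.12, adjusted p = 0.00065) and the Ras activator Rasgrp3 (0.53 ± 0.15, adjusted p = 0.0364). The calls rested on few libraries: the 5 lower became 1 without spleen library 922 or 926, 2 without spleen 950 or PP 926 and 3 without PP 950, and the 3 higher became 1 without spleen 922, spleen 926, PP 926 or PP 950. Cd79b belongs to the pan-B cell markers, of which 4 of 14 were lower in PP with a median of -0.33. By other counts more of the list was lower: 12 of 14 had each PP library below each spleen library (beside 26.2% of all genes without overlap in either direction), 12 had an unadjusted p under 0.05, DESeq2 called 7 and the fit with the replicate block 9. None of these 4, among them Cd79b, Pou2af1 and Pax5, was called in a fit of the 6 libraries alone. Leaving out spleen 922 or PP 926 left 0 pan-B cell calls, and leaving out spleen 926, spleen 950 or PP 950 left 1.

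Ligands and receptors for other immune cells also differed. Of 22 costimulation and inhibitory receptor genes tested, 6 were higher and 3 lower, with a median of -0.04. Besides Cd83 and Cd72, the higher genes were Pdcd1lg2 and Cd274, which encode the PD-1 ligands PD-L2 and PD-L1, Cd86, a ligand of CD28, and Tnfsf4, which encodes OX40 ligand. Pdcd1lg2 was at 42.4, 41.2 and 37.7 CPM in spleen and 104, 131 and 112 CPM in PP (1.51 ± 0.22, adjusted p = 0.000139), and Cd274 at 53.3, 46.7 and 48.6 and 79.0, 104 and 102 CPM (0.94 ± 0.15, adjusted p = 0.000406). Cd86 had its highest value in PP 950 (55.0, 64.0 and 62.3 CPM in spleen, 69.5, 94.4 and 147 CPM in PP, 0.78 ± 0.20, adjusted p = 0.0187) and was not called without that library, spleen 922 or spleen 926. Tnfsf4 was rare, at 1.01, 0.538 and 2.32 CPM in PP and at most 0.116 CPM in spleen, and it was not called without PP 950. The 3 lower genes encode inhibitory receptors: Siglecg (-0.69 ± 0.11, adjusted p = 0.000504), Btla (-0.63 ± 0.12, adjusted p = 0.00227) and Ceacam1 (-0.75 ± 0.14, adjusted p = 0.00189). These 3 remained called whichever of the 6 libraries was left out.

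Genes that direct where B cells sit differed in both directions. Of 24 homing, positioning and egress genes tested, 3 were higher and 6 lower, with a median of -0.10. Ccr6, the receptor for the chemokine CCL20 of the epithelium over the follicles, was at 188, 161 and 182 CPM in spleen and 389.5, 388 and 485 CPM in PP (1.25 ± 0.22, adjusted p = 0.00104). Ccr9, which guides lymphocytes to the small intestine, was low but higher in every PP library (0.145, 2.67 and 0.664 CPM and 5.93, 7.40 and 6.71 CPM, 2.44 ± 0.52, adjusted p = 0.00521). Gpr183, an oxysterol receptor that guides B cell positioning, was at 406, 445 and 423 and 602, 581 and 590.2 CPM (0.48 ± 0.14, adjusted p = 0.0466), and it lost its call whichever library was left out. Klf2, a factor of quiescence that drives genes of lymphocyte recirculation such as S1pr1, fell from 166, 197 and 160.3 CPM in spleen to 74.3, 41.6 and 34.8 CPM in PP (-1.80 ± 0.28, adjusted p = 0.000313). The sphingosine phosphate receptor S1pr4 (478, 443 and 386 CPM and 225, 171 and 213 CPM, -1.10 ± 0.14, adjusted p = 4.16e-05) and the integrin subunit Itgb7 (-0.64 ± 0.15, adjusted p = 0.00932) were lower too. Also lower were the atypical chemokine receptor Cxcr7 (9.55, 5.69 and 5.44 CPM and 0.252, 1.08 and 0 CPM, adjusted p = 0.0116) and Ffar2, a receptor for short-chain fatty acids (25.6, 20.6 and 16.6 CPM and 5.55, 4.03 and 4.04 CPM, -2.20 ± 0.57, adjusted p = 0.0201). Cxcr7 was not called without PP 950, Itgb7 not without PP 926, and Ffar2 not without spleen 922, spleen 926, PP 926 or PP 950.

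Klf2 and Itgb7, with the complement regulator Cd55 (628, 593 and 535 CPM in spleen, 337, 277 and 268 CPM in PP, -0.99 ± 0.14, adjusted p = 0.000106), were among the 4 of 12 follicular B cell genes that were lower, and 0 were higher by edgeR (0 by DESeq2, 1 at an unadjusted p under 0.05 and 1 with the replicate block). The median of that list was -0.28. Marginal zone B cell genes, which mark a subset that stays in the spleen of mice, gave 2 higher and 4 lower of 13 tested, with a median of -0.31. Cd1d1, a lipid-presenting molecule high on marginal zone cells, was at 40.4, 43.7 and 41.3 CPM in spleen and 18.3, 21.4 and 19.4 CPM in PP (-1.08 ± 0.18, adjusted p = 0.000583), and Notch2, the receptor this subset depends on, at 404, 456 and 396 and 271, 278 and 204 CPM (-0.74 ± 0.15, adjusted p = 0.00385). Cd36, a scavenger receptor (-0.84 ± 0.23, adjusted p = 0.0284), and Asb2 (-2.14 ± 0.61, adjusted p = 0.0352) completed the lower genes. Cr2, which encodes the complement receptor CD21, was not called (546, 594 and 618 CPM and 451, 547 and 479 CPM, -0.25 ± 0.18, adjusted p = 0.5). The 2 higher genes were Rgs10, a regulator of G protein signalling (14.0, 10.3 and 7.96 CPM and 31.8, 44.2 and 36.6 CPM, 1.80 ± 0.22, adjusted p = 1.95e-05), and Ephx1, an epoxide hydrolase (1.01 ± 0.17, adjusted p = 0.000593). The 4 lower became 2 without any 1 of the spleen libraries or without PP 926.

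Genes of sterol synthesis gave the highest share of calls of any list. Cells build cholesterol from acetyl units through mevalonate, isoprenoids, squalene and lanosterol, and when sterol in the membrane is low the factor SREBP2 turns on the enzymes of this route together with genes of sterol uptake. Of 22 genes tested, 16 (beside 4.81% of all genes) were higher in PP and 0 lower (0 also by DESeq2 and at an unadjusted p under 0.05), and the median was 1.25. The groups of 18 of the 22 did not overlap, so PP library 922 lay above every spleen library for these. Counts of higher members were 12 to 16 when each of the 6 libraries was left out, and 3, Idi1 and Insig1 among them, with PP 922 as the only PP library. Differences in that fit were 2.01 for Idi1, 1.79 for Sqle, 1.17 for Fdft1 and 1.02 for Nsdhl. Of other called members, the lowest differences over all alternative fits were 0.33 for Dhcr7, 0.66 for Lss, 0.82 for Stard4 and 1.33 for Fdps. All of these are to be read beside the values with all 3 PP libraries given next.

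The calls ran from the head of the route to its last steps. At its head, Hmgcs1, which makes HMG-CoA, stood at 50.9, 49.0 and 47.5 CPM in spleen and 100.2, 163 and 113 CPM in PP (1.35 ± 0.28, adjusted p = 0.00474). Idi1, the isomerase of isopentenyl diphosphate, differed most, from 45.4, 39.0 and 33.8 CPM to 159, 265 and 187 CPM (2.37 ± 0.27, adjusted p = 1.23e-05). Fdps, which makes farnesyl diphosphate, was at 36.9, 46.1 and 37.8 and 102, 162 and 134 CPM (1.72 ± 0.27, adjusted p = 0.000346). Mvd (1.23 ± 0.23) lies before these steps and Fdft1 (1.39 ± 0.26) after them, and both were called. Sqle, the squalene epoxidase, was at 27.2, 26.7 and 21.5 and 87.0, 125 and 95.9 CPM (2.03 ± 0.36, adjusted p = 0.00115). Among the enzymes after squalene, Lss (1.27 ± 0.34), Cyp51 (1.44 ± 0.26), Sc4mol (1.50 ± 0.29), Nsdhl (1.02 ± 0.21), Sc5d (0.92 ± 0.16) and Dhcr7 (0.62 ± 0.18) were higher, with adjusted p between 0.00114 (Sc5d) and 0.0418 (Dhcr7). Lss and Dhcr7 lost their calls without any library but PP 922. Genes of sterol control and transport rose too. Insig1, which holds SREBP in the endoplasmic reticulum and is one of its targets, was at 38.2, 43.0 and 39.7 and 122, 157 and 112 CPM (1.69 ± 0.26, adjusted p = 0.000253), and the sterol carrier Stard4 differed by 1.19 ± 0.28 (adjusted p = 0.00964), a call lost without spleen 926 or PP 926.

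The 6 sterol genes that were not called included both exporters. Abca1 was at 94.1, 93.6 and 93.4 CPM in spleen and 94.2, 91.9 and 101 CPM in PP (0.03 ± 0.23, adjusted p = 0.973), and Abcg1 at 108, 144 and 125 and 115, 95.0 and 131 CPM (-0.14 ± 0.18, adjusted p = 0.758). Srebf2, the gene of SREBP2, was at 338, 326 and 311 and 475, 466 and 331 CPM (0.38 ± 0.18, adjusted p = 0.229). Mvk (0.78 ± 0.26, adjusted p = 0.0751) and Hsd17b7 (0.98 ± 0.33, adjusted p = 0.0768) missed the threshold although their groups did not overlap. Enterocytes make cholesterol too. Epithelial marker RNA was lowest in PP 922 and highest in PP 950. Of the 16 called sterol genes, 0 were highest in PP 922 and 3 in PP 950. The other 13, among them Idi1, Sqle and Hmgcs1, were highest in PP 926. The part of epithelial RNA in these values was not tested. In mLN libraries of BCL2 HEL pos cells, Idi1 was at 91.0 ± 14.6 CPM and Sqle at 50.6 ± 18.6 CPM (mean ± SD, n = 3), between the spleen and PP means.

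**Figure D4:**
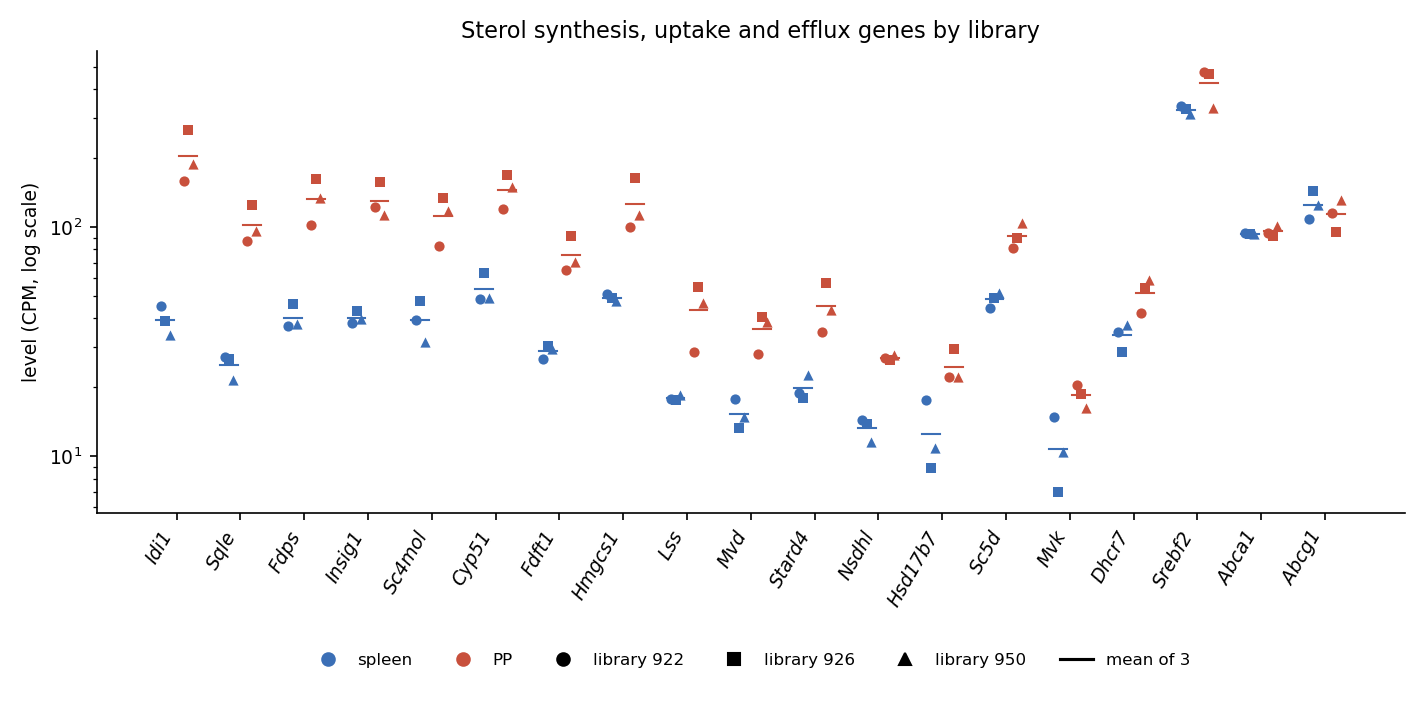
Level (CPM, log scale) of 19 of the 22 sterol synthesis, uptake and efflux genes tested, in the 3 spleen (blue) and 3 PP (red) libraries of BCL2 HEL pos cells, ordered by their difference, with 1 point per library and a line at each mean. From Idi1 to Dhcr7 the PP means lie above the spleen means, while Abca1 and Abcg1 overlap.

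Promoters of sterol genes share a CCAAT box, the site of the factor NF-Y, and some carry a sterol regulatory element, to which SREBP binds. The promoters of Hmgcs1 (chr13:119690101-119690400) and Idi1 (chr13:8885356-8885655), both on the plus strand of GRCm38.p6 from RefSeq, are shown because both genes rose and both carry such letters. Each covers 250 bases before the start of the gene and 50 after it. Capitals mark CCAAT on either strand (ATTGG on the strand shown) and CACCCCAC, the core of the sterol regulatory element.
Hmgcs1: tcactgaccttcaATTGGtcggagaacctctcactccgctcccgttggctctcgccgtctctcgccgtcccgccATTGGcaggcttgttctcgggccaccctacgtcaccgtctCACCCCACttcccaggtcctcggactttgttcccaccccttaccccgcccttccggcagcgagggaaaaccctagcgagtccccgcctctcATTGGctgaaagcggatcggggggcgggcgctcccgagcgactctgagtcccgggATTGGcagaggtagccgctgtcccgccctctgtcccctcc
Idi1: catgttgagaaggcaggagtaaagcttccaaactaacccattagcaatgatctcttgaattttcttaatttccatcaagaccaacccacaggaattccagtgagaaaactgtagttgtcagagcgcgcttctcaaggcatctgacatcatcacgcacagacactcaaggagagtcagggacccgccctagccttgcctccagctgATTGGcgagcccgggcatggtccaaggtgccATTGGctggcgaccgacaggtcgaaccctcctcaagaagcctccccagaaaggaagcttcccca
Of the 14 sterol genes with a promoter in the table, 13 held CCAAT on either strand, including all 10 called ones, beside 41.1% of the 27025 genes in the table (37.4% of 32851 promoters). CACCCCAC was found in 1, Hmgcs1, beside 3.3% of all genes, and does not overlap a CCAAT there. Of the 4 uncalled genes with a promoter, 3 held CCAAT too. A match describes the letters and is not evidence of a bound site.

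Genes of growth and ribosome biogenesis were in part higher in PP. Myc, which drives the growth of activated lymphocytes, was at 69.6, 48.3 and 77.7 CPM in spleen and 145, 146 and 199 CPM in PP (1.33 ± 0.18, adjusted p = 0.000102). In the list of the Myc network and ribosome biogenesis, 12 of 23 were higher and 0 lower (0 also by DESeq2 and at an unadjusted p under 0.05), with a median of 0.59. They included Srm, the spermidine synthase (43.6, 32.6 and 37.7 CPM and 87.6, 105 and 127 CPM, 1.49 ± 0.15, adjusted p = 2.31e-06), the nucleolar protein Ncl (0.88 ± 0.15, adjusted p = 0.000775) and the RNA polymerase I subunit Polr1b (0.88 ± 0.13, adjusted p = 0.000169). The list had 8 to 13 higher members with each library left out, and 3 with PP 922 alone. Of 40 cytosolic ribosomal protein genes, 0 were called by edgeR, 1 was called higher by DESeq2 and 1 had an unadjusted p under 0.05. Of the 40, 34 had a negative difference, and the median was -0.22.

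Of 23 glycolysis and hypoxia genes, 9 were higher and 0 lower (0 also by DESeq2 and at an unadjusted p under 0.05), with a median of 0.58. Ldha, which makes lactate, was at 398, 351 and 471 CPM in spleen and 725, 771 and 1045 CPM in PP (1.06 ± 0.14, adjusted p = 4.6e-05). Tpi1 (0.82 ± 0.12, adjusted p = 0.000166), Pkm2, the pyruvate kinase (0.65 ± 0.12, adjusted p = 0.00132), Pgam1 (0.61 ± 0.12, adjusted p = 0.00239) and Aldoc (11.9, 17.2 and 13.4 CPM and 33.2, 34.8 and 29.9 CPM, 1.20 ± 0.24, adjusted p = 0.0031) are enzymes of the same pathway. Hif1a, the oxygen-regulated factor that induces many of them, differed by 0.58 ± 0.13 (adjusted p = 0.00941). The count was 7 to 10 with each library left out and 1, Ldha, with PP 922 alone. Of 30 oxidative phosphorylation genes 1 was called, Atp5g1 (0.48 ± 0.15, adjusted p = 0.0468), a share near that of all genes. Its call was lost whichever library was left out. Of the 30, 28 had a positive difference, the median was 0.16, and the groups of 8 did not overlap (26.2% among all genes), and a difference between this list and the glycolysis list was not tested. The folate enzyme Mthfd2 of mitochondria (16.6, 14.8 and 18.6 CPM and 28.3, 45.9 and 43.4 CPM, 1.24 ± 0.22, adjusted p = 0.00114) and the thioredoxin reductase Txnrd1 (1.03 ± 0.16, adjusted p = 0.00025) were also higher.

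Folding factors of the endoplasmic reticulum were higher in part. Of 28 unfolded protein response and secretion genes, 8 were higher and 0 lower (0 also by DESeq2 and at an unadjusted p under 0.05), with a median of 0.28. Hspa5, the chaperone BiP, was at 451, 529 and 598 CPM in spleen and 636, 964 and 1245 CPM in PP (0.85 ± 0.20, adjusted p = 0.00987). Sdf2l1 (1.09 ± 0.23, adjusted p = 0.00538), Canx, which encodes calnexin (0.66 ± 0.15, adjusted p = 0.00751), and the stress factor Ddit3 (0.82 ± 0.18, adjusted p = 0.00583) were called as well, as was Pdia6, a disulfide isomerase (0.76 ± 0.19, adjusted p = 0.0138). For Hspa5 and Sdf2l1 the PP libraries ranked 922, 926, 950 from low to high, the same order as their epithelial marker sums, and the part of epithelial RNA was not tested. The 8 became 2 without spleen 922 or PP 950, 4 without PP 926, 5 without spleen 926 and 0 with PP 922 alone, and 11 without PP 922. The cytosolic heat shock genes Hspa1a (41.1, 199.7 and 124 CPM and 26.3, 31.6 and 20.4 CPM, -2.23 ± 0.47, adjusted p = 0.00482) and Hspa1b (-2.77 ± 0.62, adjusted p = 0.00739) were lower, and since these copies are nearly identical in sequence the split of reads between them is uncertain. They were the only 2 of 15 heat shock and dissociation stress genes called, and Hspa1a was not called without spleen 926, nor Hspa1b without PP 950. Most of that list went the other way: 12 of the 15 had a positive difference, and the median was 0.17. With the replicate block, 4 members were called higher and 3 lower.

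Interferon-stimulated genes were lower in PP. Type I and II interferons induce this set through STAT factors and IRF9, and its products restrict viruses and intracellular microbes. Of 38 tested, 14 were lower (beside 2.53% of all genes) and 0 higher (1 by DESeq2, 1 at an unadjusted p under 0.05), 36 of the 38 had a negative difference, and the median was -0.65. Ifit3, a sensor of foreign RNA, was at 30.5, 18.6 and 35.2 CPM in spleen and 7.95, 12.1 and 5.51 CPM in PP (-1.73 ± 0.34, adjusted p = 0.00239). The guanylate binding protein Gbp3 was at 40.7, 45.7 and 54.2 and 20.3, 19.0 and 21.9 CPM (-1.20 ± 0.27, adjusted p = 0.0087), and Irf7, the factor that amplifies interferon production, at 139, 91.9 and 123 and 60.2, 66.4 and 51.7 CPM (-0.99 ± 0.25, adjusted p = 0.0186). Rtp4 (-0.94 ± 0.22, adjusted p = 0.0111), the GTPase Irgm2 (-0.85 ± 0.20, adjusted p = 0.0103), Ifi44 (11.0, 6.62 and 19.2 CPM and 2.40, 5.11 and 4.47 CPM, -1.61 ± 0.44, adjusted p = 0.0286), Oas3 (-1.10 ± 0.30, adjusted p = 0.0296) and Ifit2 (-1.04 ± 0.31, adjusted p = 0.0456) were lower too. Single libraries moved this count: the 14 became 5 without spleen 922, 8 without spleen 926, 3 without spleen 950, 7 without PP 922 and 5 without PP 950, and 0 with PP 922 alone. The immunoproteasome subunit Psmb9 (-0.42 ± 0.10, adjusted p = 0.0154) was the 1 of 21 MHC presentation genes called, and it lost its call without spleen 922, spleen 950 or PP 926. Of 21 Toll-like receptor pathway genes 0 were called by edgeR and 2 by DESeq2, and 4 had an unadjusted p under 0.05, with a median of -0.17.

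A promoter element common to this set is the interferon-stimulated response element, searched here as a pair of GAAA with 2 bases between them, on both strands. The promoters of Ifit3 (chr19:34583279-34583578) and Gbp3 (chr3:142559794-142560093), both on the plus strand of GRCm38.p6 from RefSeq, are shown because both genes were lower and both carry 2 copies. Capitals mark the element, which reads TTTC, 2 bases and TTTC on the strand shown, and in Gbp3 the copies overlap each other.
Ifit3: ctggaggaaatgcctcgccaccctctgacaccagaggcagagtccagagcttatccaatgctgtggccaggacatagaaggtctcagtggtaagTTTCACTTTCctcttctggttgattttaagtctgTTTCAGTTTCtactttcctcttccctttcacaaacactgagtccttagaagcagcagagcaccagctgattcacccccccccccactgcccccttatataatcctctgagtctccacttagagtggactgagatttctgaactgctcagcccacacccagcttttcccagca
Gbp3: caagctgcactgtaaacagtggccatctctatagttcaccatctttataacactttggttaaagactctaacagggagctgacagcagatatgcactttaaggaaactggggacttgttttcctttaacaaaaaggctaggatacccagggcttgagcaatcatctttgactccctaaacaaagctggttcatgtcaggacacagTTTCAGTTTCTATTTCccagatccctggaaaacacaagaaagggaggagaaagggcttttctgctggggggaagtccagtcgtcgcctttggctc
The element was found in 18 of the 28 interferon-stimulated genes with a promoter in the table (64.3%), beside 3.99% of all genes and 3.44% of all promoters. Of those 28, the 11 called lower held it in 5 cases (45.5%) and the 17 not called in 13 (76.5%).

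Ahr, the receptor for aryl hydrocarbons from diet and microbes, was at 4.05, 8.02 and 6.77 CPM in spleen and 44.7, 69.4 and 61.7 CPM in PP (3.20 ± 0.32, adjusted p = 1.59e-06). TGF-beta, which directs switching to IgA, signals through TGFBR1 and SMAD3, and of 21 genes of that response 5 were higher and 0 lower by edgeR, with a median of 0.12, while 2 were lower by DESeq2, 3 at an unadjusted p under 0.05 and 1 with the replicate block. Tgfbr1 was at 31.3, 35.3 and 42.1 and 85.6, 124 and 96.6 CPM (1.49 ± 0.26, adjusted p = 0.000918), Smad3 at 56.0, 47.2 and 38.5 and 67.3, 98.4 and 94.2 CPM (0.88 ± 0.22, adjusted p = 0.0154) and the feedback repressor Skil at 62.7, 79.5 and 85.2 and 137, 202 and 222 CPM (1.30 ± 0.19, adjusted p = 0.00014). Tgif1, another corepressor, overlapped between tissues (69.9, 61.6 and 99.4 CPM and 96.7, 126 and 188 CPM, 0.83 ± 0.21, adjusted p = 0.0159). Runx2 was near the floor, at 0.145, 0 and 0 CPM in spleen and 1.77, 2.42 and 2.49 CPM in PP (adjusted p = 0.0154). The 5 calls became 2 without spleen 926 or PP 950, 3 without spleen 950 and 0 with PP 922 alone, and those of Ahr, Tgfbr1 and Skil were kept in each fit that left out 1 library.

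Cytokine receptor and JAK-STAT genes gave 3 higher and 2 lower of 25, with a median of 0.02. Stat3, activated by interleukins such as IL-6, IL-10 and IL-21, was at 197, 248 and 264 CPM in spleen and 297, 419 and 502 CPM in PP (0.78 ± 0.18, adjusted p = 0.00824). The receptor genes Il21r (0.51 ± 0.15, adjusted p = 0.0482) and Ifngr2 (0.39 ± 0.12, adjusted p = 0.0467) were higher, but Ifngr2 lost its call whichever library was left out and Il21r without any library but spleen 922. The receptor for IL-9, Il9r (39.5, 24.9 and 36.2 CPM and 9.47, 4.84 and 8.43 CPM, -2.13 ± 0.55, adjusted p = 0.019), and that for IL-10, Il10ra (238, 306 and 418 CPM and 153, 169 and 220.2 CPM, -0.83 ± 0.21, adjusted p = 0.0151), were lower. Across the leave-out fits the list kept 0 or 1 higher and 0 to 2 lower members. In the NF-kappaB and TNF family list, Nfkbie was higher beside Rel and Nfkbid (0.59 ± 0.15, adjusted p = 0.0186), and the lymphotoxin subunit Ltb was lower (-0.62 ± 0.16, adjusted p = 0.0169), 4 calls of 22. In the Notch list, Rbpj, the DNA-binding partner of Notch, was higher (0.46 ± 0.13, adjusted p = 0.0296) while Notch2 was lower, 2 calls of 17. Nfkbie lost its call without spleen 922, spleen 926, PP 926 or PP 950, Ltb without spleen 922, spleen 926 or PP 926, and Rbpj without any library but PP 922.

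Counts for genes of germinal centre cells and of cell division were near the shares of all genes and are no result about these members. Germinal centres are where B cells of the PP divide and mutate their receptors, and 1 of 14 of their genes was called, Basp1 (0.868, 0.813 and 1.46 CPM in spleen, 4.92, 4.71 and 3.53 CPM in PP, 2.05 ± 0.51, adjusted p = 0.0159), with a list median of -0.02. Of 28 mitosis genes 0 were called by edgeR and 1, lower, by DESeq2, and 1 had an unadjusted p under 0.05 (median -0.05). Of 32 DNA replication genes 2 were higher, Fen1 (0.53 ± 0.13, adjusted p = 0.0116) and Uhrf1 (0.92 ± 0.24, adjusted p = 0.0186), with a median of 0.13. Both lost their calls without spleen 926 or 950, and Basp1 without spleen 922 or 926. Plasma cell fate genes split, 2 higher and 2 lower of 12. Irf4, which rises with receptor signal strength, was at 152, 181 and 143 CPM and 259, 393 and 282 CPM (0.97 ± 0.16, adjusted p = 0.000672), and Derl3, of endoplasmic reticulum associated degradation, at 6.37, 4.07 and 7.96 and 27.5, 24.5 and 20.6 CPM (1.98 ± 0.28, adjusted p = 0.000139). Igj, the joining chain of polymeric antibody, was lower with a wide spread (351, 142 and 98.8 CPM in spleen, 75.0, 51.4 and 17.7 CPM in PP, -2.05 ± 0.58, adjusted p = 0.0324), and Pou2af1 differed by -0.52 ± 0.13 (adjusted p = 0.0201). The 2 lower calls of this list became 0 without spleen 922, PP 926 or PP 950 and 1 without spleen 950.

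Among genes of B-1, age-associated and memory-like cells, 2 of 18 were higher and 2 lower. Bhlhe40, a repressor of the circadian family, was at 13.9, 9.06 and 15.1 CPM in spleen and 79.0, 117 and 133 CPM in PP (3.12 ± 0.22, adjusted p = 2.24e-08), and the other higher gene was Pdcd1lg2. Ahnak, a large scaffold protein, was at 51.8, 73.2 and 72.1 and 15.1, 10.1 and 8.69 CPM (-2.55 ± 0.25, adjusted p = 1.42e-06), and its partner S100a10 at 333, 438 and 313 and 198, 198 and 219.9 CPM (-0.81 ± 0.21, adjusted p = 0.0178), a call lost without spleen 926, PP 922 or PP 926. Cd38, an ectoenzyme, was the 1 of 6 transitional and immature B cell genes called (480.4, 394 and 475 CPM and 708, 646 and 799 CPM, 0.67 ± 0.15, adjusted p = 0.0087), and was not called without spleen 926. Of 18 RGS and G protein regulators, 4 were higher and 0 lower by edgeR, while 2 were lower by DESeq2, 5 at an unadjusted p under 0.05 and 5 with the replicate block. Rgs1, induced by activation and a brake on chemokine receptors, was at 0.724, 1.86 and 3.19 CPM in spleen and 13.1, 13.6 and 21.2 CPM in PP (3.04 ± 0.48, adjusted p = 0.000388). Rgs3 (1.36 ± 0.22, adjusted p = 0.000476), Rgs10 and the rare Rgs16 (0, 0.116 and 0.664 CPM and 4.54, 0.403 and 2.75 CPM, adjusted p = 0.0286) were the others, and Rgs16 was not called without spleen 922, spleen 926, PP 922 or PP 950.

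For Bcl2, the anti-apoptotic gene whose name the label carries, the tissue difference did not pass the test: it was at 182, 145 and 177 CPM in spleen and 153, 142 and 141 CPM in PP (-0.21 ± 0.23, adjusted p = 0.708). In the HEL pos libraries, given in the order Pool, 392 and 399, it was at 88.0, 51.2 and 67.5 CPM in spleen and 90.2, 50.8 and 49.8 CPM in PP, lower than every BCL2 HEL pos library of the same tissue. Of 14 BCL2 family genes, 2 were higher and 1 lower. The higher ones, Bcl2a1b (18.4, 13.8 and 12.6 CPM and 57.6, 56.2 and 46.0 CPM, 1.83 ± 0.25, adjusted p = 9.41e-05) and Bcl2a1d (1.73 ± 0.28, adjusted p = 0.000571), are near-identical copies of the survival gene A1, so the share of each is uncertain. The lower one was Bmf, a pro-apoptotic BH3-only gene (98.6, 88.6 and 98.5 CPM and 47.8, 59.6 and 53.9 CPM, -0.82 ± 0.22, adjusted p = 0.0269), which lost its call whichever library was left out.

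Beyond the lists, the highest differences among genes averaging at least 3 log2 CPM whose groups were separate included those of Ccl4, Camkk1, Axl and Cd63. That average runs over the 18 fitted libraries, and Cd63 and Gpr56 were below it in the 6 compared. Ccl4, a chemokine released by activated B cells, was at 2.17, 1.74 and 0.929 CPM in spleen and 29.4, 36.9 and 48.2 CPM in PP (4.56 ± 0.52, adjusted p = 1.08e-05). Camkk1, a kinase of the calcium and calmodulin pathway, was at 6.22, 3.37 and 12.2 and 97.3, 130.3 and 139 CPM (4.08 ± 0.35, adjusted p = 2.87e-07). Axl, a receptor kinase that binds GAS6 on dying cells, was at 3.33, 3.95 and 4.91 and 37.4, 84.7 and 77.0 CPM (4.02 ± 0.31, adjusted p = 6.11e-08), and at 118 ± 39.2 CPM in mLN (mean ± SD, n = 3). Cd63, a tetraspanin of late endosomes, was low (0.434, 0.116 and 0.398 CPM and 3.79, 4.98 and 6.37 CPM, 3.99 ± 0.51, adjusted p = 4.44e-05). Every PP library exceeded every spleen library for these 4, PP 922 included. The adhesion receptor Gpr56 had 0 counts in spleen and 0.252, 2.02 and 1.72 CPM in PP, at least 10.5-fold higher, but was not called without spleen 926 or PP 950.

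At the other end, Ahnak was joined by Myadm, a membrane protein first described in myeloid cells (164, 223 and 289.9 CPM in spleen, 49.4, 43.6 and 37.4 CPM in PP, -2.38 ± 0.25, adjusted p = 3.25e-06), Nedd4, a ubiquitin ligase (14.0, 10.3 and 14.7 and 2.52, 2.02 and 2.49 CPM, -2.45 ± 0.42, adjusted p = 0.000713), and Klf11, a Krüppel-like factor (46.5, 36.8 and 40.0 and 7.83, 4.44 and 7.31 CPM, -2.64 ± 0.58, adjusted p = 0.00625). For these 4 genes no PP library reached a spleen library. Ccbp2, a scavenging receptor for inflammatory chemokines, was low in all 6 (10.9, 5.69 and 3.05 and 2.02, 0.134 and 0.860 CPM, -2.68 ± 0.62, adjusted p = 0.00941), and not called without spleen 922 or PP 950. Nod1, a sensor of bacterial peptidoglycan, was called at the margin (-2.11 ± 0.64, adjusted p = 0.0486), and without each of the 6 libraries it was not.

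**Figure D5:**
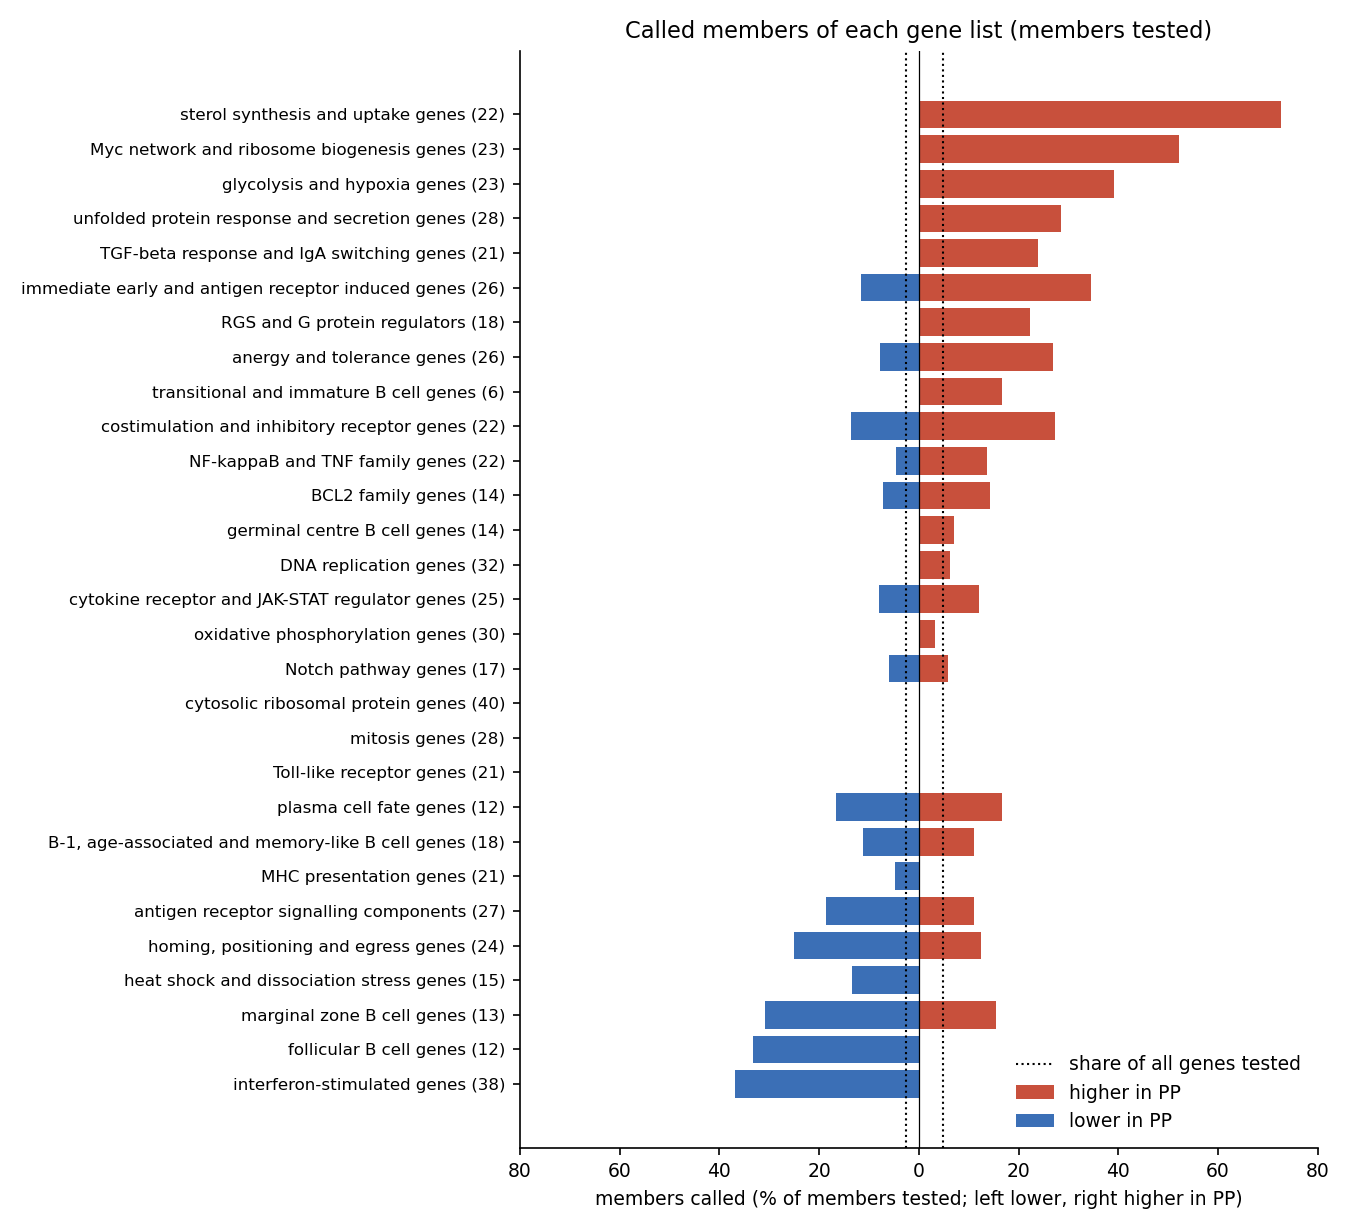
Share of the tested members of each pathway and B cell subset list that were called higher (red, to the right) or lower (blue, to the left) in PP, with the number tested in parentheses and dotted lines at the shares of all genes, 4.81% and 2.53%. Sterol synthesis genes (16 of 22 higher) and interferon-stimulated genes (14 of 38 lower) stand at the ends.

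To see whether the tissue difference depended on the BCL2 label, it was set beside that of HEL pos cells, which has its own 6 libraries. In each tissue 1 of these is titled Pool, and it was fitted as a replicate beside the numbered libraries. The spread behind the HEL pos calls and the test of Hes1 below therefore mixes both kinds. In HEL pos cells 1756 genes (15.4%) were called between PP and spleen. Of the 838 genes called in BCL2 HEL pos cells, 543 were also called in HEL pos cells in the same direction and 0 in the opposite one, which is 64.8% of the first list and 30.9% of the second. The test of the difference between both tissue differences called 1 gene (0.00876%), with 1083 genes at an unadjusted p under 0.05 and 48 called by DESeq2 and 48 with the replicate block. That gene was Hes1, a repressor downstream of Notch. In BCL2 HEL pos cells it was at 59.3, 55.8 and 45.4 CPM in spleen and 73.1, 59.3 and 66.8 CPM in PP (0.31 ± 0.16, adjusted p = 0.274), and in HEL pos cells at 97.3, 111 and 112 and 38.2, 48.7 and 49.5 CPM (-1.23 ± 0.16, adjusted p = 2.52e-05). The difference between the differences was 1.54 ± 0.22 (adjusted p = 0.0088).

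For the leading genes, values in HEL pos cells were of the same sign. Nr4a1 differed there by 2.75 ± 0.29, Egr2 by 4.40 ± 0.33, Cd83 by 2.23 ± 0.16, Axl by 5.11 ± 0.38 and Idi1 by 1.40 ± 0.26, and no difference from the BCL2 HEL pos value passed the test (adjusted p between 0.432 for Idi1 and 0.884 for Cd83). For Bhlhe40 the values were 3.12 ± 0.22 in BCL2 HEL pos and 1.56 ± 0.20 in HEL pos cells (difference 1.56 ± 0.29, adjusted p = 0.0797). Sterol genes gave 11 higher and 1 lower of 22 in HEL pos cells with a median of 0.79. Marginal zone genes gave 2 higher and 9 lower of 13 with a median of -1.17. Cr2 fell by 1.36 in HEL pos cells, against -0.25 in BCL2 HEL pos cells, a difference of 1.11 ± 0.25 (adjusted p = 0.128). Interferon-stimulated genes gave 10 lower of 38 in HEL pos cells, with a median of -0.52. These HEL pos counts are to be read beside the 15.4% of all genes called there in either direction. The split of that share by direction is not given here. The epithelial sum of the PP HEL pos libraries was 962, 297 and 1409 CPM, above that of every PP BCL2 HEL pos library, and its part in these comparisons was not tested.

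The pooled HEL neg libraries, 1 per tissue and therefore without a test, gave PP to spleen log2 ratios of 1.30 for Cd83, 0.72 for Nr4a1, 1.14 for Egr2, -2.01 for Axl and 1.10 for Idi1. The ratio of Axl in these pools had the opposite sign to that in BCL2 HEL pos cells, as had those of Ccl4 (-3.998), Cd274 (-1.13) and Klf2 (0.86). Of the 146 called genes followed gene by gene, 117 had the same sign in the pools and 27 the opposite one, and the other 2 gave no sign. The median ratio in the pools was 0.85 for the sterol genes and -1.10 for the marginal zone genes.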

How the data were processed

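RNA of sorted B cells was sequenced as single-end reads on an Illumina HiSeq, per the labels' protocols, which name more than one library kit. The submitters' processing notes name STAR, HTSeq, DESeq2 and mm10, with roles and versions not given in the sources used. The authors deposited 1 table of whole-number counts of 23337 genes in 21 libraries, with no normalization. Since the strand setting is not stated, reads of overlapping and antisense genes cannot be told apart.

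The 18 HEL pos and BCL2 HEL pos libraries (6 groups of 3, by tissue and label) were fitted together with edgeR 4.0.16 (R 4.3.3), with filterByExpr leaving 11419 genes, TMM scaling and the quasi-likelihood test (12 residual degrees of freedom before moderation, common BCV 0.207). Genes with a Benjamini-Hochberg adjusted p under 0.05 over all genes tested were called. Standard errors are the log2 difference divided by the square root of F. The difference between both tissue differences was a contrast of the same fit. CPM intervals are not given, and the floor of 3 counts covers counting error only. HEL neg pools were scaled over all 21 libraries. Steps were tested on simulated data. Results on a few genes are not reported here, though these genes remain in the counts and medians.

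The rule for named genes took the 12 highest and 12 lowest called differences averaging at least 3 log2 CPM with separate groups, up to 4 called members of each of 36 lists by smallest p, and Bcl2. Members, lists and alternatives were chosen with earlier results of these data known. The alternatives were DESeq2 1.42.0, DESeq2 size factors in edgeR, no low-count filter, fits of fewer libraries, leaving out each library, the replicate number as a block, and, added after seeing the data, PP 922 as the only PP library.

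Same-numbered PP and spleen libraries had correlations of their deviations from the group means of 0.143, 0.0963 and 0.0533 over the 11419 genes tested, and of 0.344, 0.196 and 0.155 over the 8512 averaging at least 3 log2 CPM, where differently numbered ones had -0.200 to 0.0376. Whether each exceeded 0.1 thus depended on the genes used, and the labels do not say that a number marks 1 animal. The block was kept as an alternative, with its value beside the main results it moved. Promoters (RefSeq, GRCm38.p6) were matched by symbol for 9171 of the 11419 genes.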

Additional observations from a re-analysis of the deposited data

Results flagged for a closer look

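The tissue difference of Hes1, a repressor downstream of Notch, differed between BCL2 HEL pos and HEL pos cells, by a test of the difference itself: 1.54 ± 0.22 on the log2 scale (edgeR quasi-likelihood test, adjusted p = 0.0088). The levels per library are given in the comparison with HEL pos cells: all 3 PP libraries were below all 3 spleen libraries in HEL pos cells, while in BCL2 HEL pos cells the groups overlapped, with PP 926 and spleen 922 both at 59.3 CPM.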

How the results depend on the processing

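The number of genes called between PP and spleen (838, with 549 higher and 289 lower) was 1090 by DESeq2 (693 higher, 397 lower), 845 with DESeq2 size factors and 1006 without a low-count filter. A fit of the 6 libraries alone gave 821 (476 and 345), and one of the 9 BCL2 HEL pos libraries gave 1082, with 437 lower. Leaving out each of the 6 libraries gave 473 to 866 called, 311 to 566 higher and 147 to 300 lower. With PP 922 as the only PP library, 100 were called (83 higher, 17 lower). With the replicate block, 1388 genes were called (568 lower), and 1375 with the replicate block in the 6 libraries alone (657 lower). Each PP library correlated best with the spleen library of its own number, a hint from the data and not from the design, and 0 calls followed gene by gene were lost under the block. Of 146 such calls, 5 were lost with DESeq2, 0 with size factors, 7 without the filter, 10 in the 6 libraries (140 with a value there) and 1 in the 9 libraries, and none reversed under these alternatives. The uncalled Abca1 ranged from -0.016 (without PP 950, a change of sign) to 0.068 with each library left out. The count of genes whose tissue difference differed from that of HEL pos cells was 1 with size factors, 48 by DESeq2, 114 without the filter, 48 with the replicate block, 4 with PP 922 as the only PP library and 1 to 2 with each library left out. The cause of the counts that moved was not tested, apart from the fewer libraries in fits that leave some out. Total counts limit genes near the floor of 0.258 to 0.434 CPM per library.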

Other observations

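In the mLN, the other lymphoid tissue sampled from BCL2 HEL pos cells, levels were read for genes that differed between PP and spleen, chosen after their values were seen. Nr4a1 was at 116 ± 25.1 CPM there (mean ± SD, n = 3, here and below), Egr2 at 50.9 ± 20.8 CPM and Cd83 at 997 ± 78.5 CPM. The aryl hydrocarbon receptor Ahr was at 52.3 ± 17.9 CPM, Bhlhe40 at 70.3 ± 12.7 CPM and Myc at 142 ± 15.2 CPM. Among the genes lower in PP, Klf2 was at 58.0 ± 4.87 CPM in mLN, Ahnak at 12.3 ± 0.315 CPM and the interferon-stimulated Ifit3 at 10.2 ± 2.52 CPM. Ccr6 was at 257 ± 26.1 CPM, Camkk1 at 30.4 ± 5.98 CPM, Tgfbr1 at 52.0 ± 9.56 CPM and Skil at 73.2 ± 16.0 CPM. In CPM, the mLN means of Nr4a1, Ccr6, Camkk1, Tgfbr1 and Skil were nearer to the spleen mean. That of Cd83 was about midway between its spleen and PP means (323 and 1660 CPM). Those of the other genes named here were nearer to the PP mean. This sorting depends on the scale: on the log2 scale Nr4a1 was nearer to its PP mean (24.9 CPM in spleen, 293 CPM in PP). Epithelial markers summed to 7.37, 9.90 and 10.8 CPM in the 3 mLN libraries, within or near the range of the spleen libraries. These levels were not tested.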
